A study of Mus musculus with 12 samples.

Results

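Sepx1, the gene of methionine-R-sulfoxide reductase B1 that is now named Msrb1, is 1 of the 23 selenoprotein genes measured in mouse liver in the series, and was taken as its row in each of the 4 deposited tables. The liver came from FVB/N mice that carried 20 copies of the transgene TrspA37G, a mutant selenocysteine (Sec) tRNA gene, and from wild-type (WT) FVB/N mice. For 6 weeks both genotypes ate a diet holding selenium at 0, 0.1 or 2.0 ppm. The labels give an age of 3 weeks for every sample, which is shorter than the diet and so was not read as the age at sampling, and they name no deletion of the mouse's own Sec tRNA gene in either genotype. For each genotype and diet there was 1 library of ribosome footprints, the mRNA fragments that a ribosome shields from RNase, and 1 library of total RNA, so 12 libraries in 12 groups of 1. The sources used here do not state the number of mice per library. The tables hold selenoprotein genes alone, so neither the transgene nor the liver origin could be checked in them.

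Selenoproteins carry Sec at a UGA codon that would otherwise end translation. The Sec tRNA is brought to that codon through a stem-loop in the 3′ untranslated region, and ribosomes that fail to insert Sec stop there. The forms of the Sec tRNA differ in a methyl group in the anticodon loop, and the mutation in the transgene blocks that methylation, which is known to matter most for stress-related selenoproteins. Msrb1 is a zinc-containing reductase of the cytosol and nucleus that turns the R form of oxidised methionine back to methionine, with Sec in its active site. Liver and kidney are known for high levels of it.

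In the GRCm38 annotation, Msrb1 (ENSMUSG00000075705.12) lies on the plus strand of chromosome 17, at 24736642 to 24742778, and its transcript has 5 exons. No other annotated gene overlapped it. The coding sequence has 116 codons. Sec is codon 95, in exon 3 (24740158 to 24740160), so that most of the coding sequence lies before the UGA. The deposited coding-sequence values cover 291 nt, with a 5′ window of 222 nt before the UGA and a 3′ window of 51 nt after it, which leaves 18 nt between them. These lengths are the annotated coding sequence less fixed numbers of bases, kept because all Sepx1 values came out as whole reads with them, and the 291 nt are 1 codon shorter than the 294 nt that the stated trimming (the first 15 and last 3 codons) leaves. The 18 nt are taken here to be the 6 codons that end with the UGA, which was inferred and not tested. The coding bases around the UGA are shown because footprints before and after this codon carry the results, with the UGA (TGA in DNA) in capitals, from the GENCODE M21 transcript on GRCm38. The first stretch, chr17:24740113-24740194, holds 30 bases of the 5′ window, the 18 nt and the exon 3 part of the 3′ window.
Sepx1 exon 3 part: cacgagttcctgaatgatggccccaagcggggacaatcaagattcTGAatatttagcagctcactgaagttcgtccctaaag
The second stretch, chr17:24741906-24741922, holds the 17 bases of the 3′ window that lie in exon 4, so the window spans an exon junction.
Sepx1 exon 4 part: gcaaagaagctgctgcc

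The base after the UGA was A in Sepx1, as in 3 of the 23 genes (13% with A, 52.2% with G, 26.1% with C and 8.7% with T). Gpx1 and Seli, set beside Sepx1 in the readthrough comparisons below, have G and C there, and Selh, the gene at the next rank in WT, has C. The 18 nt and the next codon of the 3 genes, again with the UGA in capitals, are on the plus strand of GRCm38 at chr17:24740143-24740163, chr9:108339436-108339456 and chr5:30266949-30266969.
Sepx1: ggacaatcaagattcTGAata
Gpx1: aatgtcgcgtctctcTGAggc
Seli: aaaccaaactcagatTGActa

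The mapped reads of each library were inferred here, as the number with which most coding-sequence values became whole reads. They came to 17763406 to 30296837 for footprint libraries and 10669213 to 16709701 for mRNA libraries. All read counts and intervals below rest on these inferred numbers. Sepx1 was among the better covered genes, with 961 to 6545 footprints over the coding sequence and 3450 to 7188 mRNA reads, but its 3′ window held only 35 to 272 footprints. A difference is called here when 2 libraries differ by at least 1.5-fold and the 95% interval made from the reads excludes 1. With 1 library per group there is no replicate check, and the intervals cover counting error only.

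Sepx1 mRNA, the template for Msrb1, was lower in TrspA37G than in WT liver beyond counting error at each diet, was called lower at 2.0 ppm alone, and differed between diets within a genotype by less than the call limit. In TrspA37G liver its mRNA was 395, 358 and 327 RPKM at 0, 0.1 and 2.0 ppm selenium, against 476, 518 and 549 RPKM in WT liver. The 3 TrspA37G levels lay below the 3 WT levels, and the order ran down with selenium in TrspA37G and up with selenium in WT. All neighbours in that order differed beyond counting error, but only the difference at 2.0 ppm was called, at 1.68-fold lower in TrspA37G (1.61 to 1.75), beside 6 of 20 genes called lower (30%). At 0.1 ppm the TrspA37G level was 1.45-fold lower (1.39 to 1.51) and at 0 ppm 1.204-fold lower (1.16 to 1.25), neither of them called, beside 20% of genes called lower at 0.1 ppm and 45% at 0 ppm. With the median log2 ratio over all genes subtracted, the differences were 0.28 at 0 ppm, turned in sign, and -0.32 at 2.0 ppm, no longer called. All of these genes are selenoprotein genes, so the subtraction sets Sepx1 against them and is not a neutral scaling. In bulk liver, fewer cells with the RNA and less RNA per cell cannot be told apart.

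**Figure D1:**
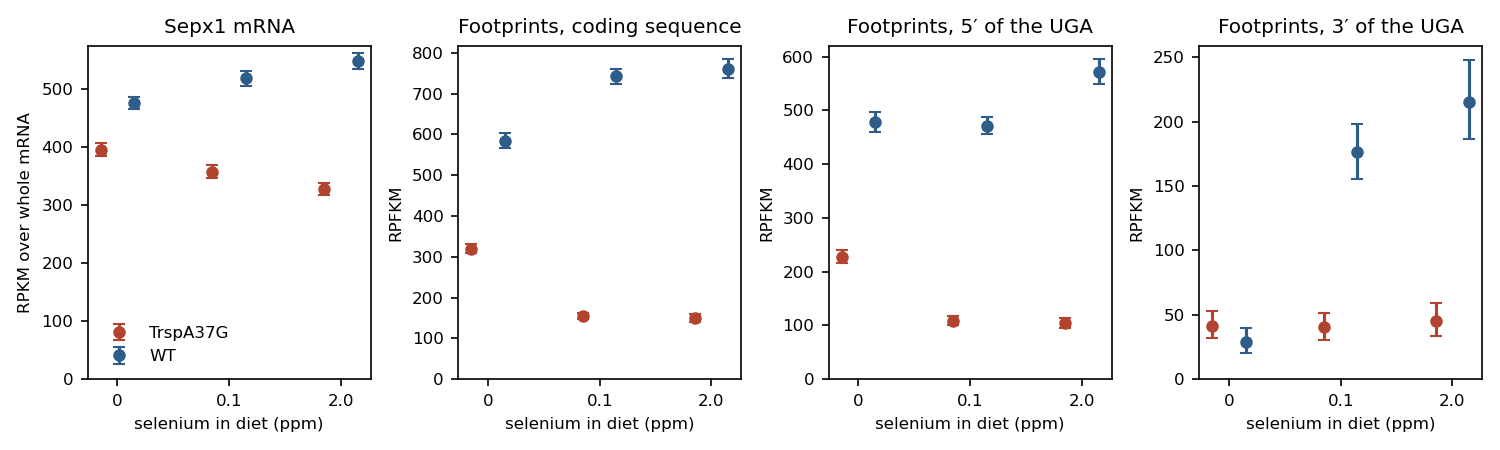
Sepx1 mRNA (RPKM over the whole mRNA) and Sepx1 footprints (RPFKM over the coding sequence, its 5′ window and its 3′ window) against dietary selenium in ppm, with TrspA37G to the left of WT at each diet. Points are single libraries and bars are 95% exact Poisson counting intervals. TrspA37G lies below WT in each panel and diet, except in the 3′ window at 0 ppm, where it was 41.4 against 28.7 RPFKM.

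Ribosome occupancy of Sepx1 differed far more between genotypes than its mRNA. Over the coding sequence, Sepx1 had 320, 155 and 149 RPFKM (RPKM counted over footprints) in TrspA37G at 0, 0.1 and 2.0 ppm, against 585, 742 and 762 RPFKM in WT. Every TrspA37G value was lower than every WT value. The difference was 4.80-fold at 0.1 ppm (4.525 to 5.09), where 8 of 20 genes were called lower (40%), and 5.11-fold at 2.0 ppm (4.76 to 5.49), beside 10 of 20 (50%). At 0 ppm it shrank to 1.83-fold (1.74 to 1.92), beside 12 of 20 genes called lower (60%), with a median log2 ratio of -0.96 over all genes against -0.87 for Sepx1. That median is over selenoprotein genes alone, most of them called lower at 0 ppm, so it is not a neutral scale. Set against it, Sepx1 stood at log2 0.0941 at 0 ppm and so was lower about as the typical gene was. With the medians at 0.1 and 2.0 ppm subtracted, it remained lower (log2 -1.79 and -1.69).

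Before the UGA, footprints gave 228, 108.8 and 105 RPFKM in TrspA37G at the 3 diets, against 478, 472 and 572 RPFKM in WT. They were 2.09-fold lower in TrspA37G at 0 ppm (1.96 to 2.235, beside 56.2% of 16 genes lower), 4.34-fold at 0.1 ppm (4 to 4.71, beside 31.6% of 19 lower and 5.26% higher) and 5.46-fold at 2.0 ppm (4.96 to 6.02, beside 36.8% of 19 lower and 5.26% higher). The lower occupancy was therefore already present in the codons before Sec, although with the median over all genes subtracted the 0 ppm difference was log2 -0.17 and not called. After the UGA, Sepx1 had 41.4, 40.1 and 45.2 RPFKM in TrspA37G, against 28.7, 176 and 215 RPFKM in WT. The TrspA37G values were 4.39-fold lower at 0.1 ppm (3.31 to 5.89, beside 50% of 12 genes lower) and 4.77-fold lower at 2.0 ppm (3.49 to 6.62, beside 61.5% of 13). At 0 ppm the order was turned round, at 1.45-fold with an interval of 0.939 to 2.26 that includes 1, while 8 of 11 genes were called lower (72.7%), and with the median subtracted it was log2 1.91 and called higher. The 3 TrspA37G levels after the UGA differed from each other by less than counting error.

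Without selenium, ribosome occupancy of Sepx1 was higher in TrspA37G and was not called different in WT, and the responses of the genotypes differed. In TrspA37G, Sepx1 had 320 RPFKM at 0 ppm against 155 RPFKM at 0.1 ppm, 2.07-fold higher (1.94 to 2.21). It was the single gene of 20 called higher (5%), while 14 were called lower (70%) and the median log2 ratio was -1.08. Set against each of the other 19 genes in the same libraries, the Sepx1 ratio was higher than all 19 of them by at least 1.5-fold with an interval that excluded 1. The nearest was Txnrd2, mitochondrial thioredoxin reductase, with a log2 ratio of 0.26 against 1.05 for Sepx1 (difference 0.79, 0.51 to 1.07). At 0 ppm, Sepx1 had the highest footprint density of the 23 genes over the coding sequence in TrspA37G. It held 11.1% of their coding-sequence footprints, whereas at 0.1 ppm it was 4th with 3.45%. The top rank did not hold before the UGA alone. There, Sepx1 had 228 RPFKM at 0 ppm in TrspA37G, below Sepp1 (800) and Gpx4 (372) and above the other genes. In that library, 43.3% of the Sepx1 coding-sequence footprints were counted in neither window and so were assigned to the stretch between them.

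In WT, Sepx1 had 585 RPFKM at 0 ppm against 742 RPFKM at 0.1 ppm, which is 1.27-fold lower (1.22 to 1.32) and not called, beside 11 of 20 genes called lower (55%). With the median log2 ratio over all genes subtracted, the direction turned, at log2 0.39 (0.33 to 0.45), also not called. The response of TrspA37G minus that of WT was 1.39 on the log2 scale (1.28 to 1.502). As a share of the footprints on the 23 genes, Sepx1 reached 10.9% at 0 ppm in WT against 6.34% at 0.1 ppm, where that median was -0.73. The mRNA was 395 RPKM at 0 ppm against 358 RPKM at 0.1 ppm in TrspA37G and 476 against 518 RPKM in WT, neither called, and the difference between these responses was 0.27 (0.19 to 0.35), also not called.

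The 2 windows responded differently. Before the UGA, the 0 ppm value in TrspA37G was 2.10-fold above that at 0.1 ppm (1.92 to 2.30), with 1 of 18 genes called higher (5.56%), namely Sepx1, and 44.4% called lower. In WT the 2 values, 478 and 472 RPFKM, were within counting error of each other (1.01-fold, 0.961 to 1.07), while 31.6% of 19 genes were called lower. After the UGA the WT value was 6.14-fold lower at 0 than at 0.1 ppm (4.31 to 9.002), at 35 against 272 footprints, beside 76.9% of 13 genes called lower. The TrspA37G values were 41.4 and 40.1 RPFKM, both from 61 footprints (1.03-fold, 0.712 to 1.498), while 9 of 11 genes were called lower (81.8%), and with the median over those genes (-2.06) subtracted the difference was log2 2.11 (1.57 to 2.65) and called higher. The response of TrspA37G minus that of WT was 1.05 before the UGA (0.902 to 1.2) and 2.67 after it (1.94 to 3.39). On the deposited scale, footprints at 0 against 0.1 ppm were thus denser upstream of Sec in TrspA37G and sparser downstream of it in WT, and both of these calls held with the median subtracted (log2 1.70 and -1.53).

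**Figure D2:**
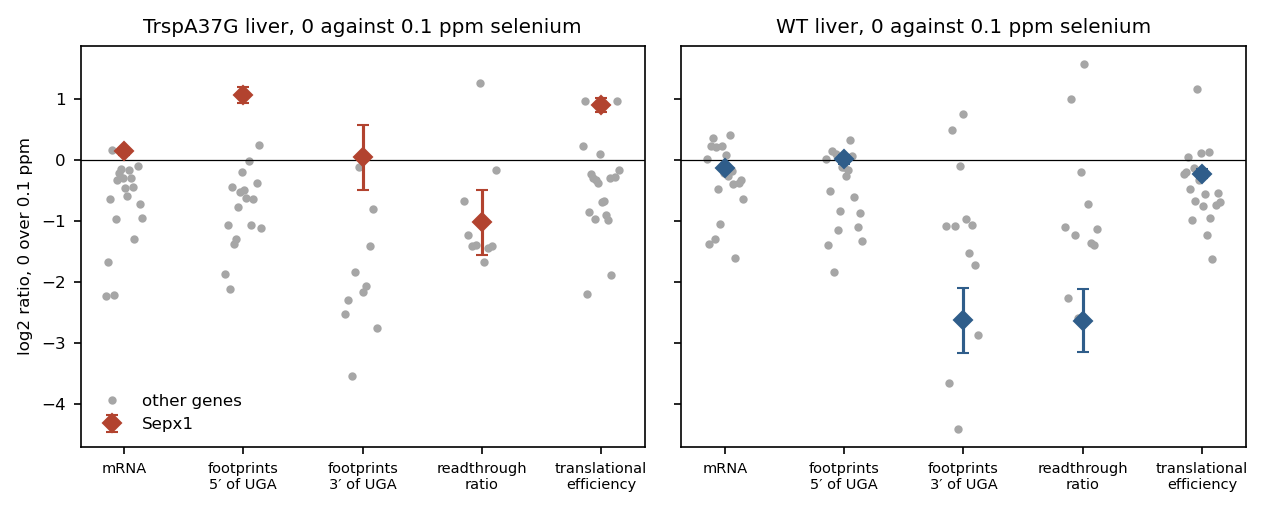
Log2 ratio of 0 over 0.1 ppm selenium in TrspA37G liver (left) and WT liver (right) for Sepx1 (diamonds, with 95% counting intervals) and the other selenoprotein genes that could be compared (grey points), for mRNA, footprints on each side of the UGA, the readthrough ratio and translational efficiency. Sepx1 stands above the other genes before the UGA in TrspA37G, at 1.07, and has the lowest readthrough point in WT, at -2.64.

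The readthrough ratio, the footprint density after the UGA divided by that before it of the same library, is free of the scaling between libraries. For Sepx1 it was 0.182, 0.369 and 0.431 in TrspA37G at 0, 0.1 and 2.0 ppm, against 0.05998, 0.373 and 0.376 in WT. The 4 values on 0.1 and 2.0 ppm lay within counting error of their neighbours in the order, and both 0 ppm values lay below them, the WT one lowest. Without selenium the ratio was lower by 2.03-fold in TrspA37G (1.41 to 2.93), as in 70% of 10 genes, and by 6.22-fold in WT (4.36 to 8.88), as in 66.7% of 12. The responses differed by 1.61 on the log2 scale (0.88 to 2.35).

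Among the 12 genes compared in WT, the Sepx1 ratio fell furthest, and it fell further than 9 of the other 11 by at least 1.5-fold with an interval that excluded 1. It was not separated from Gpx1, the cytosolic glutathione peroxidase (log2 -2.26 against -2.64 for Sepx1, difference -0.38, -0.92 to 0.16), nor from Selh, a nuclear selenoprotein with few reads (difference -0.05, -3.72 to 3.61). In TrspA37G, Sepx1 was 7th of 10 genes from the lowest ratio. Its difference was past that limit against 2 of the other 9, Seli, which makes phosphatidylethanolamine and whose ratio was higher at 0 ppm, and Sepp1, the selenium carrier in plasma.

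Between genotypes at 0 ppm, the Sepx1 ratio was 3.03-fold higher in TrspA37G (1.99 to 4.61). Of 9 genes, Sepx1 and Seli were called higher (22.2%) and 1 was called lower, and the median log2 ratio over the 9 was -0.10. Sepx1 exceeded 7 of the other 8 genes by at least 1.5-fold with an interval that excluded 1, and only Seli lay above it, at log2 2.55 against 1.60 for Sepx1. At 0.1 ppm the genotypes differed by 1.01-fold (0.757 to 1.35) and at 2.0 ppm by 1.14-fold (0.829 to 1.58), so no difference was detectable there at this depth, beside 9.09% and 16.7% of genes called lower. In WT at 0 ppm the level of the ratio was the lowest of 9 genes, and in TrspA37G at 0 ppm it was 5th of 9.

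The mRNA libraries give the background of these windows. Their density after the UGA divided by that before it was 2.05, 2.62 and 2.31 in TrspA37G and 1.87, 2.37 and 1.95 in WT, so mRNA reads were denser in the 3′ window, where footprints were sparser. It was lower at 0 than at 0.1 ppm by 1.28-fold in TrspA37G (1.12 to 1.46) and by 1.27-fold in WT (1.14 to 1.40). With each footprint ratio divided by the mRNA ratio of its genotype and diet, readthrough at 0 ppm remained lower in both genotypes (log2 -0.67 in TrspA37G and -2.30 in WT) and higher in TrspA37G than in WT (log2 1.47).

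**Figure D3:**
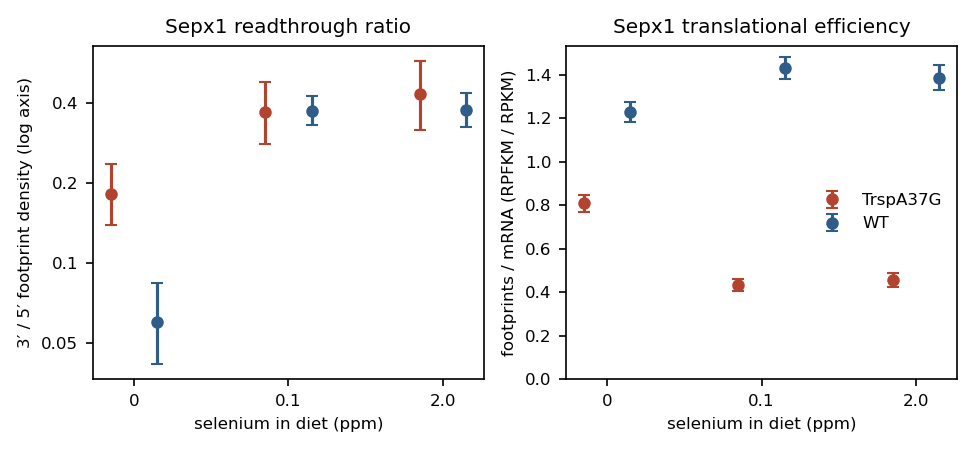
Sepx1 readthrough ratio (left, log axis) and Sepx1 translational efficiency, footprints over the coding sequence divided by RPKM of the whole mRNA (right), against dietary selenium in ppm, with TrspA37G to the left of WT. Bars are 95% exact binomial counting intervals. Readthrough is lowest at 0 ppm in both genotypes, at 0.182 in TrspA37G and 0.05998 in WT, and efficiency is lower in TrspA37G at each diet.

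Reads of the 18 nt between the windows were not counted directly but are the coding-sequence reads less those of the 2 windows. Any read counted over the coding sequence but in neither window is thus placed there. By this subtraction the 18 nt took a large share of Sepx1 footprints, at 43.3%, 41.8% and 41.1% in TrspA37G for the 3 diets. In WT the shares were 36.8%, 47.3% and 37.8%. The density there was 9.83, 9.61 and 9.46 times that of the 5′ window in TrspA37G, against 7.29, 12.04 and 8.13 times in WT. The mRNA libraries, which were not made from ribosome-protected fragments, also had more reads there, at 6.59, 7.18 and 7.79 times the 5′ window in TrspA37G and 5.32, 6.06 and 6.05 times in WT. Footprints per mRNA within the 18 nt were 0.654, 0.311 and 0.312 in TrspA37G and 0.961, 1.35 and 1.02 in WT. Within the 5′ windows they were 0.438, 0.233 and 0.257 in TrspA37G and 0.701, 0.677 and 0.758 in WT. What makes both kinds of reads dense in the 18 nt was not tested. In TrspA37G, footprints in the 18 nt were 2.145-fold higher at 0 than at 0.1 ppm (1.94 to 2.38), as they also were before the UGA. In WT they were 1.63-fold lower (1.53 to 1.735). Relative to the 5′ window, the footprint density in TrspA37G at 0 and at 2.0 ppm lay within counting error of that at 0.1 ppm. In WT this relative density was 1.65-fold lower at 0 than at 0.1 ppm (1.52 to 1.79), beside 2 of 10 genes called lower (20%). That of the mRNA reads was 1.14-fold lower (1.03 to 1.26). The relative footprint density in WT was also lower at 2.0 than at 0.1 ppm, by 1.48-fold (1.36 to 1.61), not called. The 0.1 ppm library thus stood above both other WT diets. For this relative footprint density, the response of TrspA37G minus that of WT was 0.76 on the log2 scale at 0 ppm (0.53 to 0.98). At 2.0 ppm it was 0.54 (0.27 to 0.82), not called.

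**Figure D4:**
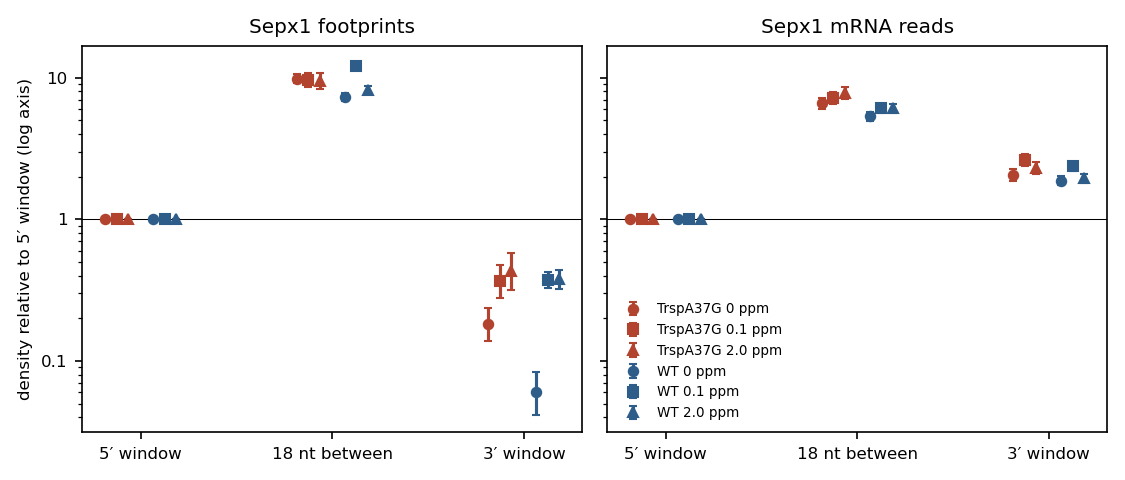
Density of Sepx1 footprints (left) and Sepx1 mRNA reads (right) in the 5′ window, the 18 nt between the windows and the 3′ window, each divided by the density of the 5′ window of the same library (log axis). Colours stand for genotype, with TrspA37G to the left of WT, symbols for the diet and bars for 95% exact binomial counting intervals. Reads of the 18 nt are coding-sequence reads less those of both windows. Both kinds of library peak in the 18 nt, and in the 3′ window footprints lie below 1 and mRNA reads above 1.

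Translational efficiency, footprints over the coding sequence per mRNA, was 0.809, 0.432 and 0.456 in TrspA37G at 0, 0.1 and 2.0 ppm, against 1.23, 1.43 and 1.39 in WT. No TrspA37G value reached any WT value. At 0.1 ppm Sepx1 was 3.31-fold lower in TrspA37G (3.08 to 3.56), 1st of 20 genes from the lowest ratio, with Gpx1 next at log2 -1.59 against -1.73 for Sepx1, and 30% of genes were called lower. At 2.0 ppm it was 3.05-fold lower (2.81 to 3.30, beside 30%), and at 0 ppm 1.52-fold lower (1.43 to 1.61, beside 15%), which was log2 -0.34 and not called with the median subtracted. Sepx1 was not the lowest at 2.0 ppm, where Gpx1 lay below it, or at 0 ppm. At 0.1 ppm and at 2.0 ppm the Sepx1 difference was past 1.5-fold, with an interval that excluded 1, against 16 of the other 19 genes.

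Without selenium the efficiency in TrspA37G was 1.87-fold above that at 0.1 ppm (1.73 to 2.03), and 3 of 20 genes were called higher (15%): Sepx1 (log2 0.90), Txnrd2 (0.98) and Gpx1 (0.98). The ratios of Txnrd2 and Gpx1 were within counting error of that of Sepx1. In Gpx1 the log2 ratio was -0.70 for footprints and -1.68 for mRNA, whereas in Sepx1 it was 1.05 for footprints and 0.14 for mRNA. In WT it was 1.16-fold lower (1.11 to 1.23), not called, beside 30% of genes called lower. That direction turned with the median subtracted (log2 0.29) and without the 18 nt (log2 0.0424). On the deposited scale the responses of the genotypes differed by 1.12 (0.99 to 1.26). Taken within the 5′ windows of both kinds of library, a choice made after seeing the data, efficiency was 0.438, 0.233 and 0.257 in TrspA37G and 0.701, 0.677 and 0.758 in WT. Within the 3′ windows it was 0.0388, 0.0328 and 0.0479 in TrspA37G and 0.0225, 0.107 and 0.147 in WT, which reverses the genotype difference at 0 ppm, to 1.73-fold higher in TrspA37G (1.11 to 2.73).

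Between the diets with selenium, Sepx1 mRNA and footprints stayed within the call limit. Of 6 measures, none was called between 2.0 and 0.1 ppm in either genotype. In TrspA37G the ratios ran from 1.09-fold lower (mRNA) to 1.17-fold higher (readthrough, 0.776 to 1.76), beside 0% to 9.09% of genes called in either direction (5.26% higher before the UGA). In WT they ran from 1.03-fold lower (efficiency) to 1.22-fold higher (footprints after the UGA, 1.01 to 1.475), beside at most 15% of genes. The difference between the genotypes' responses was not called in any of the 6 measures.

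Genotype was also fitted over the 3 diets with limma, with diet as a block and all genes tested together, on log2 of the value plus 0.5. The diets then take the place of replicates. limma draws the spread of each gene towards a value shared over genes, so SE and p do not measure the spread of Sepx1 alone. After the UGA, the SE was 0.4432 for every gene tested. Over the coding sequence, the Sepx1 log2 differences were -0.87, -2.26 and -2.35 at 0, 0.1 and 2.0 ppm. Sepx1 averaged 7.61 in TrspA37G and 9.44 in WT for footprints over the coding sequence (log2 difference -1.83, SE 0.29, adjusted p = 1.26e-06, lower at 3 of 3 diets), beside 9 of 21 genes lower (42.9%). Before the UGA the difference was -1.87 (SE 0.28, adjusted p = 6.78e-07, lower at 3 of 3 diets), beside 31.6% of 19 genes, and after it -1.28 (SE 0.44, adjusted p = 0.0144, lower at 2 of 3 diets), beside 46.2% of 13. With each library centred on its median these 3 differences were -1.22, -1.50 and -0.77 and none passed (adjusted p = 0.204, 0.197 and 0.449). That median too is over selenoprotein genes alone, so centring sets Sepx1 against them. The difference after the UGA did not pass without the pair at 0.1 ppm (-0.86, adjusted p = 0.289) or at 2.0 ppm (-0.80, adjusted p = 0.398).

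Efficiency differed by -1.31 in the same fit (SE 0.27, adjusted p = 0.0274, lower at 3 of 3 diets), beside 3 of 21 genes lower (14.3%), and it held with the libraries centred (-1.01, adjusted p = 0.0381). It did not pass without the pair at 0.1 ppm (-1.10, adjusted p = 0.0873) or at 2.0 ppm (-1.16, adjusted p = 0.382). The mRNA missed the threshold (-0.52, SE 0.18, adjusted p = 0.0800, lower at 3 of 3 diets) beside 4 of 22 genes lower (18.2%), and passed without the pair at 0 ppm (-0.64, adjusted p = 0.0253). Readthrough missed it too (0.59, SE 0.38, adjusted p = 0.297, higher at 2 of 3 diets) beside 1 of 12 genes higher (8.33%). An exact permutation of genotype within the diets gave two-sided p = 0.25 for mRNA, for footprints over the coding sequence and before the UGA, and for efficiency, the smallest value this design allows, and p = 0.5 for footprints after the UGA and for readthrough.

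Sepx1 is counted among the stress-related selenoproteins, and 6 others of that group were listed beside it (Gpx1, Gpx3, Selh, Selm, Selt and Sepw1), with 7 housekeeping selenoproteins (Gpx4, Sephs2, Sep15, Sepp1, Txnrd1, Txnrd2 and Txnrd3). Between genotypes at 0.1 ppm, 3 of the 6 and 4 of the 7 had lower footprints over the coding sequence. Over all genes, 8 of 20 were lower (40%). The median log2 ratios were -1.001 and -0.98, against -2.26 for Sepx1 and -0.48 over all genes. Sepx1 was not the lowest of its group in the fit over the 3 diets. Gpx1 lay below it over the coding sequence (-2.51 against -1.83), before the UGA (-2.32 against -1.87) and in efficiency (-1.37 against -1.31). In TrspA37G at 0 against 0.1 ppm, 5 of the 6 and 5 of the 7 were lower, with medians of -1.79 and -0.73, beside 14 of 20 over all genes (70%, median -1.08), while Sepx1 was at 1.05. In WT, 4 of the 6 and 6 of the 7 were lower, with medians of -1.12 and -0.87, beside 11 of 20 over all genes (55%, median -0.73), while Sepx1 was at -0.34. For mRNA in TrspA37G at 0 against 0.1 ppm, 2 of the 6 and 2 of the 7 were lower (30% of all 20 genes), with medians of -0.96 and -0.44 beside 0.14 for Sepx1.

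The genes whose footprints over the 6 libraries were most like those of Sepx1 were Txnrd2, Txnrd3, a thioredoxin reductase known from testis, and Sels, a selenoprotein of the endoplasmic reticulum. The root mean square difference from Sepx1 of log2 values centred on each gene's mean was 0.40, 0.76 and 0.83 among 15 genes. Txnrd2 had 5.50, 4.60 and 3.97 RPFKM in TrspA37G at 0, 0.1 and 2.0 ppm, against 7.54, 13.8 and 16.3 RPFKM in WT. Like Sepx1 it was highest without selenium among the TrspA37G libraries and lowest without selenium among the WT libraries. For mRNA the nearest were Txnrd1, cytosolic thioredoxin reductase (0.20), Sels (0.22) and Sephs2, the enzyme that supplies active selenium for Sec synthesis (0.24), among 18 genes.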

How the data were processed

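Per the labels, livers were flash frozen and homogenised with cycloheximide in a bead mill, footprints were made with RNase and monosomes isolated by ultracentrifugation, and a small RNA kit was used. Reads were mapped with Bowtie to mm9, per the submitters' processing notes. The sources used here give no version, trimming, strand or handling of multi-mapping reads. Per the file headers, the authors deposited RPKM values of mRNA over the whole mRNA, the coding sequence (without its first 15 and last 3 codons) and its 5′ and 3′ windows, and footprints in the same unit (RPFKM). In 3 of the tables, the TrspA37G column at 2.0 ppm is called mRNA in its assay line and RPFKM in its unit line, and was taken to hold footprints, since the mRNA of its group stands elsewhere in the table.

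Whole reads were recovered with 1 number of mapped reads per library, fitted as the one that made most coding-sequence values whole. Of 795 values above 0, 647 came out whole within 0.001 with a length taken from the annotation (GENCODE M21, GRCm38, used for structure and sequence). The other 148, among them the whole mRNA of Sepx1 (904 nt), used the shortest length that made them whole, so their wholeness is no test. Ratios use deposited values with no pseudocount, for genes with at least 10 reads over both libraries and 1 in each. Intervals (95%) are Clopper-Pearson for 2 values, conditional odds ratio up to 2000 reads, and log-normal above that and for differences between responses or genes. Genotype was fitted with limma 3.58.1 in R 4.3.3 (Benjamini-Hochberg over the genes tested, at least 10 reads over the libraries used). Other values used Python 3.11.15 with scipy 1.17.1. The scripts were also run on simulated data, with Poisson reads and a genotype effect equal at all diets. Those runs cannot show whether these assumptions hold for the libraries. No count model was fitted. Reads are not independent molecules, so intervals cover counting error only.

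Sepx1 and the gene lists were chosen with earlier results of these data known. The genes named for likeness are the 3 with the smallest root mean square difference among genes with at least 10 reads in every library, genes at a rank next to Sepx1 were also named, and other genes named beside a count of 5 or fewer were chosen after their values were seen. Alternatives were another scaling, a pseudocount, a 2-fold threshold, other windows, no minimum of reads and diets left out.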

Additional observations from a re-analysis of the deposited data

Results flagged for a closer look

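In 5 measures of Sepx1 the response to 0 against 0.1 ppm selenium differed between TrspA37G and WT by at least 1.5-fold with an interval that excluded 1. The difference of the log2 responses, TrspA37G minus WT, was 1.39 for footprints over the coding sequence, 1.05 for footprints before the UGA, 2.67 for footprints after the UGA, 1.61 for readthrough and 1.12 for translational efficiency. Footprints over the coding sequence had log2 responses of 1.05 in TrspA37G and -0.34 in WT, and efficiency 0.90 in TrspA37G and -0.22 in WT, of which the WT values were not called. Readthrough was lower without selenium in both (-1.02 in TrspA37G and -2.64 in WT). These tests carry counting error only, and the 4 libraries behind each (8 for efficiency) were not replicated. The 5 measures come from the same 4 footprint libraries and share reads, so they are not 5 separate results.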

How the results depend on the processing

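A pseudocount of 1, mRNA taken over the coding sequence, and the division of readthrough by the mRNA 3′/5′ ratio changed no Sepx1 call between libraries. No paired analysis was possible because the labels give no replicate numbers; genotypes were paired only by diet, in the limma fit and the permutation. Depth limits the 3′ window, which held 35 to 272 Sepx1 footprints.

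Subtracting the median log2 ratio over all genes, which ran from -2.06 to 0.29 across the comparisons so scaled, turned Sepx1 footprints over the coding sequence in TrspA37G against WT at 0 ppm to 0.0941 and ended the calls of footprints before the UGA (-0.17) and efficiency (-0.34) at 0 ppm and of mRNA at 2.0 ppm (-0.32). It made calls of mRNA at 0 against 0.1 ppm in TrspA37G (0.59) and of footprints after the UGA at 0 ppm, between genotypes (1.91) and against 0.1 ppm in TrspA37G (2.11). Differences that were not called moved to 0.28 (mRNA between genotypes at 0 ppm), 0.11 (mRNA), 0.39 (footprints over the coding sequence) and 0.29 (efficiency) for 0 against 0.1 ppm in WT, and -0.17 (footprints over the coding sequence) for 2.0 against 0.1 ppm in WT. At a 2-fold threshold mRNA between genotypes at 2.0 ppm (-0.75), footprints over the coding sequence (-0.87) and efficiency (-0.60) at 0 ppm, and efficiency at 0 against 0.1 ppm in TrspA37G (0.90) were not called. Without the 18 nt, efficiency moved to 0.0424 and 0.20 in WT at 0 and at 2.0 against 0.1 ppm, and the difference of the responses at 2.0 ppm to -0.10. Within the 5′ windows, an alternative chosen after seeing the data like the 3′ windows, these WT values were 0.0497 and 0.16. Within the 3′ windows they were -2.25 (called lower) and 0.46, the genotype difference at 0 ppm turned to 0.79, and 0 against 0.1 ppm in TrspA37G was 0.24, not called.

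In the limma fit, a pseudocount of 0.1 ended the calls of footprints after the UGA (-1.28) and efficiency (-1.31). Centring ended those of footprints over the coding sequence (-1.22), before (-1.50) and after the UGA (-0.77), and leaving out the diet term that after the UGA (-1.28). Leaving out 1 diet gave -0.64 to -0.40 for mRNA, which passed without the pair at 0 ppm, -2.30 to -1.56 over the coding sequence, -2.28 to -1.59 before and -2.18 to -0.80 after the UGA, 0.10 to 0.90 for readthrough and -1.66 to -1.10 for efficiency. The call after the UGA was lost without the pair at 0.1 ppm (adjusted p = 0.289) and at 2.0 ppm (adjusted p = 0.398). Of all genes tested, 4, 9, 6, 7, 1 and 3 passed for mRNA, footprints over the coding sequence, before and after the UGA, readthrough and efficiency. Centring left 0 over the coding sequence, 0 before and 2 after the UGA, no diet term left 0, 2, 1, 0 and 0 for the first 5 measures, and a pseudocount of 0.1 left 0 for readthrough. Leaving out 1 diet gave 3 to 5, 5 to 11, 2 to 7, 0 to 9, 0 and 0 to 11. At an unadjusted p under 0.05, limma had 6 genes over the coding sequence and 2 before the UGA with centring, 3 for mRNA, 1 after the UGA and 1 for readthrough with no diet term, and 4 for readthrough with a pseudocount of 0.1. Where leaving out a diet gave 0, the unadjusted counts were 3 after the UGA, 1 to 5 for readthrough and 2 to 4 for efficiency. Over the 7 comparisons between libraries, a 2-fold threshold left 16, 25 and 15 genes called for mRNA, footprints before the UGA and efficiency, against 32, 42 and 32 at 1.5-fold.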
